A study of Homo sapiens with 12 samples.

Results

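The genes described here encode the main plasma membrane and lysosomal carriers of amino acids in human cells, the families SLC1A, SLC3A, SLC7A, SLC36A, SLC38A and SLC43A. They were chosen by name alone: every protein-coding gene of the count table whose symbol is one of these family names followed by a digit. The rule found 41 of the 58288 genes in the table, and 9 further matches that are not protein-coding were left out. Of the 41, 40 are carriers or the heavy chains that carry them to the membrane. The remaining gene, *SLC7A6OS*, lies opposite *SLC7A6* and matched by symbol only, and it encodes no carrier. Enough read pairs were counted to test 24 of the 41 genes in promyelocytes and 25 in granulocytes, the additional one being *SLC1A2*.

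The data come from HL-60/S4, an established human cell line grown from a promyelocytic leukemia. Proliferating promyelocytic cells, and granulocytic cells made from them over 4 days in 1 µM ATRA (all-trans retinoic acid), were given 16 ng/mL TNF-α or the same volume of its vehicle, water, for 2 h. Both forms were at passage 8 and in medium with added calcium, and total RNA depleted of ribosomal RNA was sequenced. Each of the 4 groups held 3 libraries, each from its own flask of this 1 line, so p-values measure the spread between flasks and not between people or lines. The promyelocytes and the granulocytes were run as separate experiments. Levels in one cell type therefore cannot be told apart from levels in one experiment and were not tested against each other, whereas the responses to TNF-α were.

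Cells take up most amino acids through carriers that differ in substrate and driving force. Sodium-coupled carriers concentrate glutamine, glutamate, alanine or serine, and exchangers then trade these for leucine, cystine or arginine. Several exchangers are heterodimers of a light chain that transports and a shared heavy chain, *SLC3A2* (CD98). In the lysosome, other carriers release amino acids and report them to mTORC1, the kinase complex that couples amino acid supply to growth. In neutrophils and their precursors, imported cystine feeds glutathione synthesis, arginine feeds arginase and nitric oxide synthase, and glutamine is a fuel.

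The libraries held 22829189 to 31895061 counted read pairs each. Levels are given in CPM, a gene's count per 1000000 counted read pairs, scaled within a cell type by TMM, a method that corrects library size for a few very abundant genes. A count of 3, taken as the floor of detection for counting error only, stood at 0.0952 to 0.135 CPM. The promyelocyte marker list (8 genes, led by *MPO*) summed to 9710 to 10511 CPM in vehicle-treated promyelocytes and 2530 to 2784 CPM in vehicle-treated granulocytes. *ELANE*, a defining promyelocyte gene, was close to absent in both (1.77 and 0.0223 CPM). The granulocyte list (8 genes, led by *CYBB*) summed to 160 to 167 and 4986 to 5296 CPM in the same groups. With TNF-α the promyelocyte list stood at 7328 to 8309 CPM in promyelocytes and 2333 to 2541 CPM in granulocytes, and the granulocyte list at 269 to 286 and 5777 to 6093 CPM. Of the granulocyte list, *ITGAM*, *CD38* and *CSF3R* fell in granulocytes (log2 fold changes -0.26, -0.19 and -0.31, edgeR adjusted p = 3.41e-05, 0.00222 and 0.00011). *ITGAX*, *NCF1*, *FPR1* and *TGM2* rose there, and *CYBB* was not called. *CEBPE*, of the promyelocyte list, stood at 134 CPM in vehicle-treated promyelocytes and 212 CPM in vehicle-treated granulocytes. Of 6 macrophage genes only *CSF1R* exceeded 1 CPM, and *MARCO* was at 0 in every library. The macrophage list summed to 3.88 to 4.78 CPM with vehicle and 2.95 to 3.99 CPM with TNF-α in promyelocytes, and to 49.5 to 51.3 and 30.3 to 33.8 CPM in granulocytes, where *CSF1R* fell (log2 fold change -0.64, edgeR adjusted p = 2.99e-11). The lymphocyte list (6 genes, *MS4A1* at 0 in every library) summed to 13.7 to 23.4 CPM over the 4 groups, most of it from *NKG7* (7.69 to 10.2 CPM as group means) and *CD79A* (3.32 to 8.71 CPM). The erythroid list (*HBB* and *HBA1* at 0) reached at most 0.255 CPM. The stromal list (*COL1A2* and *DCN* at 0) held *COL1A1* alone, at up to 0.104 CPM with vehicle and 0.397 to 0.762 CPM with TNF-α in promyelocytes and up to 0.300 CPM in granulocytes. The part of these genes in the results was not tested. Transcripts known to respond to TNF-α (*TNF*, *NFKBIA*, *TNFAIP3*, *VCAM1*, *ICAM1*) summed to 78.7 to 81.2 CPM with vehicle and 974 to 1018 CPM with TNF-α in promyelocytes, and to 185 to 208 and 2339 to 2599 CPM in granulocytes.

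Fewer of these genes were called in promyelocytes than in granulocytes, and so were fewer of all genes. In promyelocytes 4 of the 24 tested genes increased (*SLC1A3*, *SLC1A4*, *SLC38A1*, *SLC7A11*) and 3 decreased (*SLC36A1*, *SLC43A1*, *SLC7A5*), and 17 did not pass the test. A gene was called at an adjusted p under 0.05 in edgeR's quasi-likelihood test with Benjamini-Hochberg adjustment over all genes tested. Without TNF-α library 3, 5 of them were called decreased. By the same rule 8.15% of all tested genes increased and 6.65% decreased in promyelocytes. In granulocytes 12 of the 25 tested genes increased and 3 decreased (*SLC38A9*, *SLC43A1*, *SLC7A6*), and 10 did not pass. Across all tested genes of granulocytes, 24.4% increased and 24.8% decreased. The 12 that increased were *SLC1A2*, *SLC1A3*, *SLC1A4*, *SLC1A5*, *SLC36A4*, *SLC38A1*, *SLC3A2*, *SLC43A2*, *SLC43A3*, *SLC7A1*, *SLC7A11* and *SLC7A2*. With trends of GC content and gene length removed, 6 genes were called decreased in granulocytes, among them *SLC7A5*, *SLC36A1* and *SLC38A10*. In granulocytes *SLC1A2* and *SLC1A3* passed the filter on low counts through the TNF-α libraries alone, so they had to differ, and the counts over tested genes are given as a description.

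The vehicle and TNF-α libraries did not overlap for 11 of the 24 tested genes in promyelocytes, where 31.1% of all tested genes were apart in this way, and for 17 of 25 in granulocytes, against 55.2% of all tested genes. Over these genes the median log2 fold change was -0.0055 in promyelocytes, beside -0.0094 for all genes tested, and 0.184 in granulocytes, beside -0.0046. Summed over all 41 genes, the carriers made up 2691 to 2781 CPM with vehicle and 2683 to 2807 CPM with TNF-α in promyelocytes, and the libraries of these groups overlapped. In granulocytes the sum was 2000 to 2079 CPM with vehicle and 2487 to 2503 CPM with TNF-α, with no overlap. In RNA from whole cultures, more RNA per cell and more cells that express a gene cannot be told apart.

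The response itself differed between the cell types for 14 of the 25 genes tested (edgeR interaction, adjusted p under 0.05), beside 24.0% of all genes. The 25 include *SLC1A2*, not called, which passed the filter there through the granulocyte TNF-α libraries alone. In 11 of the 14 the granulocyte response was the more positive, and in *SLC7A11*, *SLC38A9* and *SLC7A6* the more negative. The split by direction was not computed over all genes. The median difference was 0.28 for the 25 genes and 0.033 for all genes tested. All 5 carriers called in both cell types moved in the same direction in both: *SLC1A3*, *SLC1A4*, *SLC38A1* and *SLC7A11* rose and *SLC43A1* fell. Of all genes tested in both, 11.7% were called in both, and 89.8% of these had the same direction. A further 10 carriers were called in granulocytes alone. For 9 of them, of the 24 tested in both cell types, the difference between the responses was called too. Of all genes tested in both, 38.6% were called in granulocytes alone. The share of these with a called difference was not computed. The exception among the 10 carriers was *SLC1A2*, whose counts in promyelocytes were too low to test alone, so it is outside the 24. *SLC36A1* and *SLC7A5* were called in promyelocytes alone, and the share of all genes called in this way was not computed.

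**Figure D1:**
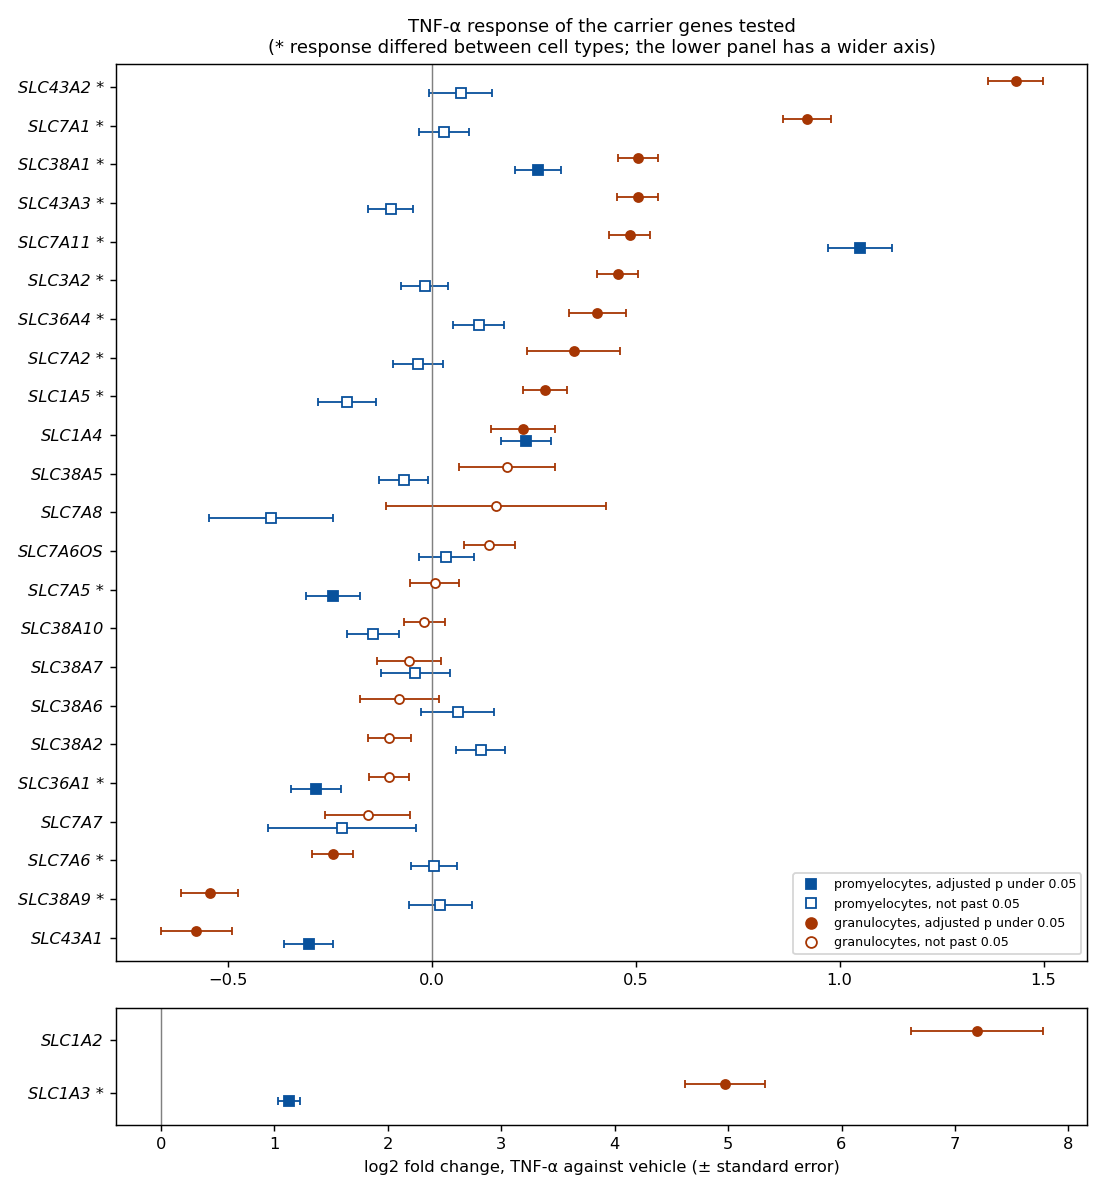
Log2 fold change of TNF-α against vehicle for the 25 genes tested, with standard errors, in promyelocytes (blue squares) and granulocytes (brown circles). Filled symbols passed an adjusted p of 0.05, stars mark the 14 genes whose response differed between cell types, and the lower panel, with a wider axis, holds *SLC1A2* and *SLC1A3*, which passed the filter in granulocytes through the TNF-α libraries alone. The brown circles lie to the right of the blue squares for most starred genes, and *SLC7A11* lies the other way.

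The glutamate carriers showed the largest fold changes, from low levels. *SLC1A3* (GLAST, chr5:36606355-36688334, plus strand), a sodium-coupled glutamate and aspartate carrier best known from glia, stood at 9.48, 11.5 and 9.46 CPM in the vehicle-treated promyelocyte libraries and at 20.8, 22.8 and 22.8 CPM with TNF-α. Every TNF-α library was above every vehicle library, a rise of 2.19-fold (log2 fold change 1.13, SE 0.0959, edgeR adjusted p = 2.76e-08). In granulocytes *SLC1A3* was at 4, 3 and 2 counts in the vehicle libraries, around the floor, and at 82, 90 and 77 counts with TNF-α. The ratio of the summed counts, scaled to library size, was 32.7 (95% counting interval 16.9 to 72.3, exact, 9 counts against 249). The granulocyte response exceeded the promyelocyte response by 3.88 on the log2 scale (SE 0.324, edgeR adjusted p = 7.19e-10). Even so, the level with TNF-α was 3.45 ± 0.226 CPM in granulocytes and 22.1 ± 1.16 CPM in promyelocytes (mean ± SD, n = 3), in separate experiments.

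*SLC1A2* (GLT-1, chr11:35251206-35420063, minus strand), the other high-affinity glutamate carrier with enough counts to test in granulocytes, also had more counts with TNF-α, at still lower levels. With TNF-α it stood at 0.253 ± 0.103 CPM in promyelocytes and 2.39 ± 0.508 CPM in granulocytes (SD, n = 3), in separate experiments. That order is the reverse of the order of *SLC1A3*. *SLC1A2* had 0 counts in all 3 vehicle-treated promyelocyte libraries, which allows up to 3 counts per library. With TNF-α the promyelocyte libraries held 7, 4 and 11 counts. It fell below the filter there and was not tested. In granulocytes the vehicle libraries held 0, 1 and 0 counts and the TNF-α libraries 42, 81 and 53. The ratio was 208 with a counting interval of 36.8 to 8253, because the vehicle group held a single count. In the fit to all 12 libraries *SLC1A2* passed the filter on low counts through the granulocyte TNF-α libraries alone. The difference between its responses is therefore given as a description. It was not detectable at this depth (1.39, SE 3.17, edgeR adjusted p = 0.806). The other 3 carriers of this group were not tested: *SLC1A1* and *SLC1A6* had 0 counts in every library, and *SLC1A7* had too few.

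Sequence upstream of 3 of the carriers that rose most in granulocytes is shown as an example of what these genes carry near their starts. TNF-α is known to act through NF-κB and AP-1. Both strands of the 250 bases before each annotated RefSeq transcript start (build GRCh38.p14) were searched for the NF-κB motif, the AP-1 motif TGANTCA, the core of the antioxidant response element TGACNNNGC, and the core of the element that ATF4 and its partners bind under amino acid shortage, TGATGNAA. Capitals mark the matches, none of which overlap each other. *SLC1A3* has 3 annotated starts, and *SLC7A1* and *SLC43A2* are shown at 1 start each. The windows before the second and the third start of *SLC1A3* lie inside exons of longer annotated transcripts, so only the 30 bases around each match are shown, and 52 bases of the *SLC43A2* window were left out for the same reason.
SLC1A3, chr5:36596338-36596587, plus strand, before the start at 36596588: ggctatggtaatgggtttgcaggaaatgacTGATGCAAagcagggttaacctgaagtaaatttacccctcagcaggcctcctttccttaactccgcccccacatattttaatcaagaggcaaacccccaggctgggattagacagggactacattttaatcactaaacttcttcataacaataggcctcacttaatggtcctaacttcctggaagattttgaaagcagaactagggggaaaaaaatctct
SLC1A3, NF-κB match, chr5:36606490-36606519, plus strand, before the start at 36606606: cagaaacctcGGGGTTTCCCcctcctccct
SLC1A3, antioxidant core match, chr5:36606400-36606429, plus strand, before the start at 36606606: gacagtgaacTGACAAAGCgtgaaagtggt
SLC1A3, AP-1 match, chr5:36606815-36606844, plus strand, before the start at 36606954: gaggagtagccTGAATCAaggctagccatt
SLC1A3, AP-1 match, chr5:36606917-36606946, plus strand, before the start at 36606954: taattcggagtTGAGTCAttcggggtggat
SLC7A1, chr13:29595689-29595938, minus strand, before the start at 29595688: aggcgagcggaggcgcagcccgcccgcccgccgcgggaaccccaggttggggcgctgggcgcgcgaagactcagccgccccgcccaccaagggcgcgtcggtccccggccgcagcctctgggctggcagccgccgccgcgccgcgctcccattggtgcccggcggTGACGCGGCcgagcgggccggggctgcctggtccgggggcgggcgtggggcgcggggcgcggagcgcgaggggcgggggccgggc
SLC43A2, chr17:1628887-1629084, minus strand, upstream part of the window before the start at 1628834: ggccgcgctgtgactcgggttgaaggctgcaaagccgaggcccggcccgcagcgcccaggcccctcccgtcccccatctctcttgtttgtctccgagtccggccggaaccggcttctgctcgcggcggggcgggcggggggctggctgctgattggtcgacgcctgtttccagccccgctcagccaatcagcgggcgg

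The 3 windows of *SLC1A3* held matches to all 4 motifs, with the NF-κB match 106 to 97 bases before the second start and AP-1 matches 128 to 122 and 26 to 20 bases before the third. The single match of *SLC7A1* was the antioxidant core, 85 to 77 bases before its start, and the printed bases of *SLC43A2* held none, although an AP-1 match lies elsewhere in its windows. Windows were available for 21 of the 25 tested genes (42 windows, 1 or more per gene). Over all 35116 windows of the RefSeq table, the NF-κB motif occurred in 9.96%, AP-1 in 6.57%, the antioxidant core in 10.9% and the amino acid response core in 3.14%. Among the 21 genes, NF-κB matches occurred in 3 (*SLC1A3*, *SLC1A4*, *SLC43A1*), AP-1 in 7 (*SLC1A3*, *SLC36A4*, *SLC38A1*, *SLC38A9*, *SLC3A2*, *SLC43A2*, *SLC7A8*), the antioxidant core in 6 and the amino acid response core in 2. A gene with several windows has more chances of a match, and a match of letters is no evidence of binding. *SLC1A2* and *SLC7A11* had no entry.

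**Figure D2:**
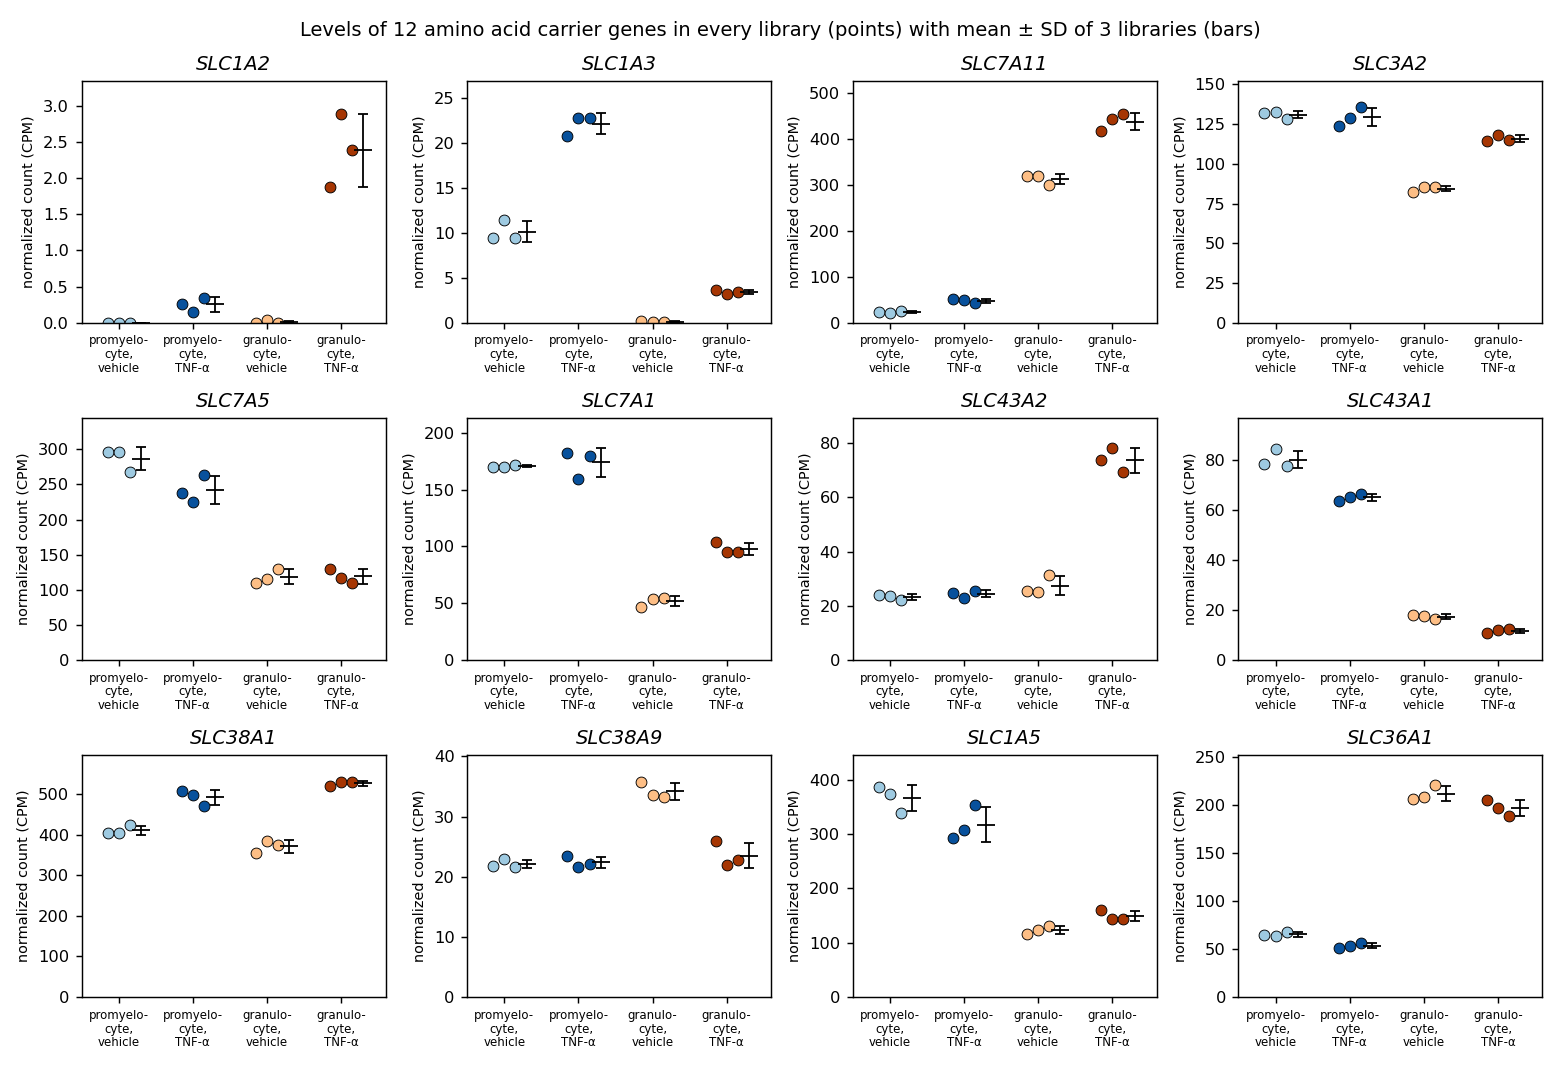
Normalized counts (CPM, linear axes from 0) of 12 carriers in each of the 12 libraries, with the mean and SD of 3 libraries beside each group. In granulocytes the vehicle and TNF-α points are fully apart in every panel but *SLC7A5*, and in promyelocytes they are apart for *SLC1A2*, *SLC1A3*, *SLC7A11*, *SLC7A5*, *SLC43A1*, *SLC38A1* and *SLC36A1*.

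The 2 neutral amino acid exchangers of the SLC1 family differed in their pattern. *SLC1A5* (ASCT2, chr19:46774883-46788594, minus strand), the main glutamine exchanger of proliferating cells, stood at 115, 123 and 131 CPM with vehicle and at 160.3, 144 and 144 CPM with TNF-α in granulocytes. All TNF-α libraries were higher (log2 fold change 0.28, SE 0.0536, edgeR adjusted p = 4.12e-05). In promyelocytes the libraries held 386, 374 and 339 CPM with vehicle and 292, 307 and 353 CPM with TNF-α, and the groups overlapped. The promyelocyte log2 fold change of *SLC1A5* was -0.21 (SE 0.0701, edgeR adjusted p = 0.0523), just short of the threshold. It passed under DESeq2 (adjusted p = 0.0359) and in edgeR with no filter (adjusted p = 0.0115), with all 12 libraries in 1 fit (adjusted p = 0.0197), with GC content and length trends removed (-0.15, adjusted p = 0.0336) and without vehicle library 3 or TNF-α library 3 (adjusted p of 0.0247 and 0.0101). The responses of *SLC1A5* differed between the cell types by 0.52 (SE 0.0989, edgeR adjusted p = 0.000233), from opposite signs.

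*SLC1A4* (ASCT1, chr2:64988477-65023865, plus strand), an exchanger of alanine, serine, cysteine and threonine, rose in both cell types. Promyelocyte libraries held 99.8, 97.8 and 91.9 CPM with vehicle and 113, 107 and 119.6 CPM with TNF-α (log2 fold change 0.23, SE 0.0610, edgeR adjusted p = 0.0129). Granulocyte libraries held 16.8, 17.1 and 19.3 CPM with vehicle and 20.8, 19.6 and 21.8 CPM with TNF-α (log2 fold change 0.22, SE 0.0791, edgeR adjusted p = 0.0179). The groups were apart in both cell types, by a small margin in granulocytes. The promyelocyte call was lost without vehicle library 2 or 3 or TNF-α library 3 (edgeR adjusted p of 0.0514, 0.0688 and 0.0543), and the granulocyte call without vehicle library 1 or 2 or TNF-α library 3 (edgeR adjusted p of 0.0864, 0.0773 and 0.0653) and under DESeq2 (adjusted p = 0.0653). The difference between the 2 responses of *SLC1A4* was 0.03 (SE 0.0967, edgeR adjusted p = 0.862).

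Among the heteromeric exchangers, the heavy chain *SLC3A2* and the light chain *SLC7A11* rose in granulocytes, while *SLC7A6* fell. *SLC3A2* (chr11:62856102-62888875, plus strand) rose in granulocytes, from 82.6, 85.7 and 85.1 CPM with vehicle to 114, 118 and 115 CPM with TNF-α. The 2 groups were tight and far apart, a rise of 1.37-fold (log2 fold change 0.46, SE 0.0496, edgeR adjusted p = 7.34e-10). In promyelocytes the vehicle libraries held 132, 133 and 128 CPM and the TNF-α libraries 124, 129 and 136 CPM, which overlapped (log2 fold change -0.02, SE 0.0573, edgeR adjusted p = 0.881). The responses of *SLC3A2* differed by 0.51 (SE 0.0725, edgeR adjusted p = 5.99e-06). *SLC3A1*, the heavy chain of kidney and intestine, had too few counts to test.

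*SLC7A11* (xCT, chr4:138164097-138242349, minus strand), the light chain that imports cystine in exchange for glutamate, rose in both cell types. In promyelocytes it stood at 22.4, 22.3 and 24.9 CPM with vehicle and at 52.1, 49.2 and 43.0 CPM with TNF-α. Each TNF-α library was well above each vehicle library, a rise of 2.07-fold (log2 fold change 1.05, SE 0.0792, edgeR adjusted p = 4.73e-09). In granulocytes, a separate experiment, *SLC7A11* stood at 319.9, 319 and 299.5 CPM with vehicle and 418, 443 and 454 CPM with TNF-α. The rise there was 1.40-fold (log2 fold change 0.49, SE 0.0498, edgeR adjusted p = 1.8e-10). It was smaller than in promyelocytes by 0.53 on the log2 scale (difference -0.53, SE 0.0900, edgeR adjusted p = 7.36e-05). The mean difference in CPM was larger in granulocytes (313 ± 11.6 to 438 ± 18.6) than in promyelocytes (23.2 ± 1.44 to 48.1 ± 4.66, SD, n = 3). That contrast joins separate experiments and was not tested.

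*SLC7A5* (LAT1, chr16:87830023-87869488, minus strand), the light chain that brings in leucine and other large neutral amino acids, was among the most abundant carriers and fell in promyelocytes. Vehicle libraries held 297, 296 and 267 CPM and TNF-α libraries 238, 225 and 264 CPM, apart by the narrow gap between 264 and 267 (log2 fold change -0.24, SE 0.0655, edgeR adjusted p = 0.015). In granulocytes the values were 109, 116 and 130.1 CPM with vehicle and 130.1, 117 and 109.7 CPM with TNF-α, the same range in both groups (log2 fold change 0.01, SE 0.0592, edgeR adjusted p = 0.938). The responses of *SLC7A5* differed by 0.29 (SE 0.102, edgeR adjusted p = 0.0396). The promyelocyte call was lost without vehicle library 1 or 2 or TNF-α library 2 (edgeR adjusted p of 0.0582, 0.0923 and 0.104). The called difference held in 4 of the 12 fits that left out 1 library (edgeR adjusted p up to 0.15), ended with no filter (edgeR adjusted p = 0.0733), with DESeq2 size factors (edgeR adjusted p = 0.0928) and under DESeq2 (adjusted p = 0.118), and stood at 0.03 (adjusted p = 0.843) once trends with GC content and gene length were removed, a fit in which *SLC7A5* also fell in granulocytes (-0.15, adjusted p = 0.00596). Its pseudogene copy *SLC7A5P1*, at 98 to 401 counts per library, could share read pairs with it.

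*SLC7A6* (y+LAT2, chr16:68264516-68301823, plus strand), a light chain that exports arginine in exchange for glutamine and sodium, fell in granulocytes from 106, 115 and 112 CPM to 93.0, 91.2 and 97.2 CPM. The groups were apart (log2 fold change -0.24, SE 0.0510, edgeR adjusted p = 0.000129). In promyelocytes it stood at 149, 158 and 152 CPM with vehicle and 158, 150.0 and 153 CPM with TNF-α, overlapping throughout (log2 fold change 0.01, SE 0.0561, edgeR adjusted p = 0.96). The difference between its responses was -0.21 (SE 0.0725, edgeR adjusted p = 0.0344), a call that held in 5 of the 12 fits that left out 1 library (edgeR adjusted p up to 0.104). Of the other light chains, *SLC7A7* and *SLC7A8* were tested and not called in either cell type, with log2 fold changes of -0.22 and -0.39 in promyelocytes and -0.16 and 0.16 in granulocytes. *SLC7A9*, *SLC7A10* and *SLC7A13* were not tested.

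The cationic carriers, which import arginine, lysine and ornithine, rose in granulocytes. *SLC7A1* (CAT1, chr13:29509410-29595688, minus strand), the broadly expressed arginine carrier, went from 46.5, 53.5 and 54.6 CPM with vehicle to 104, 94.7 and 94.8 CPM with TNF-α. The lowest TNF-α library was well above the highest vehicle library, a rise of 1.89-fold (log2 fold change 0.92, SE 0.0585, edgeR adjusted p = 4.34e-16). In promyelocytes the vehicle libraries held 170.0, 169.7 and 172 CPM and the TNF-α libraries 183, 159.6 and 179.7 CPM, with the vehicle range inside the TNF-α range (log2 fold change 0.03, SE 0.0604, edgeR adjusted p = 0.796). The responses of *SLC7A1* differed by 0.93 (SE 0.0889, edgeR adjusted p = 8.69e-09).

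*SLC7A2* (CAT2, chr8:17497088-17570573, plus strand), the carrier that supplies arginine to activated macrophages, was low in granulocytes, at 6.92, 7.87 and 7.14 CPM with vehicle and 7.95, 9.53 and 10.5 CPM with TNF-α. The groups were apart by less than their own spread (log2 fold change 0.35, SE 0.114, edgeR adjusted p = 0.011). Promyelocyte libraries held 92.0, 91.0 and 89.7 CPM with vehicle and 95.8, 87.0 and 83.6 CPM with TNF-α, and overlapped (log2 fold change -0.03, SE 0.0620, edgeR adjusted p = 0.773). The responses differed by 0.42 (SE 0.117, edgeR adjusted p = 0.00885). The granulocyte rise of *SLC7A2* was not called under DESeq2 (adjusted p = 0.0533), nor in edgeR without vehicle library 1 or TNF-α library 3 (adjusted p of 0.0503 and 0.072). Among the related genes, *SLC7A3*, *SLC7A4* and *SLC7A14* had too few counts to test.

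The 3 members of the SLC43 family, which are facilitated carriers, split. *SLC43A2* (LAT4, chr17:1569267-1628886, minus strand), a carrier of branched-chain amino acids, methionine and phenylalanine, rose in granulocytes from 25.5, 25.1 and 31.3 CPM to 73.7, 78.3 and 69.2 CPM. Apart from *SLC1A2* and *SLC1A3*, no tested carrier rose by a larger factor in granulocytes than these 2.70-fold (log2 fold change 1.43, SE 0.0681, edgeR adjusted p = 6.49e-20). Promyelocyte libraries of *SLC43A2* overlapped, at 24.1, 23.5 and 22.1 CPM with vehicle and 24.7, 23.0 and 25.5 CPM with TNF-α (log2 fold change 0.07, SE 0.0772, edgeR adjusted p = 0.605). The responses of *SLC43A2* differed by 1.40 (SE 0.112, edgeR adjusted p = 3.25e-10).

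*SLC43A1* (LAT3, chr11:57484534-57515786, minus strand), a carrier with like substrates, moved the other way, and was the only carrier called lower in both cell types. It fell in promyelocytes from 78.8, 84.4 and 77.9 CPM to 63.5, 65.3 and 66.6 CPM (log2 fold change -0.30, SE 0.0598, edgeR adjusted p = 0.00125). In granulocytes it fell from 18.1, 17.8 and 16.2 CPM to 10.7, 11.9 and 12.4 CPM (log2 fold change -0.58, SE 0.0875, edgeR adjusted p = 7.67e-07). Every TNF-α library was below every vehicle library in both. The difference between its responses was -0.24 (SE 0.0969, edgeR adjusted p = 0.077) and passed the threshold under DESeq2 (-0.30, adjusted p = 0.0209), with its size factors in edgeR (-0.29, adjusted p = 0.0284), with no filter (-0.32, edgeR adjusted p = 0.0242), with GC content and length trends removed (-0.45, edgeR adjusted p = 0.000629) and without granulocyte vehicle library 3 (-0.29, edgeR adjusted p = 0.0429).

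*SLC43A3* (chr11:57406954-57427580, minus strand), the third of this family, is known as a purine nucleobase carrier. In granulocytes it rose from 119, 131 and 129 CPM to 177, 177 and 183 CPM, with the groups far apart (log2 fold change 0.50, SE 0.0496, edgeR adjusted p = 6.41e-11). In promyelocytes all vehicle libraries (273, 267 and 259 CPM) were above all TNF-α libraries (247, 245 and 253 CPM), but the change did not pass (log2 fold change -0.10, SE 0.0546, edgeR adjusted p = 0.253). The responses of *SLC43A3* differed by 0.64 (SE 0.0729, edgeR adjusted p = 1.61e-07). A gene on the same strand shares 29.9% of its exon bases, and read pairs there were left out of the count, so its level is uncertain.

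The sodium-coupled SLC38 family takes up glutamine, alanine and serine or moves them across the lysosomal membrane. *SLC38A1* (SNAT1, chr12:46183063-46270017, minus strand), a glutamine importer, was abundant in all 12 libraries and rose in both cell types. Promyelocyte libraries held 405, 404 and 423 CPM with vehicle and 507, 498 and 472 CPM with TNF-α (log2 fold change 0.26, SE 0.0563, edgeR adjusted p = 0.00273). Granulocyte libraries held 354, 384 and 376 CPM with vehicle and 520.0, 531 and 529.7 CPM with TNF-α (log2 fold change 0.51, SE 0.0490, edgeR adjusted p = 4.51e-11). The groups were fully apart in both, and the granulocyte response of *SLC38A1* was the larger by 0.28 (SE 0.0705, edgeR adjusted p = 0.00386), which fell short with no filter (0.20, edgeR adjusted p = 0.0591).

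*SLC38A9* (chr5:55625845-55773194, minus strand), the lysosomal arginine sensor that signals to mTORC1, fell in granulocytes. It went from 35.8, 33.6 and 33.2 CPM to 25.9, 21.9 and 22.7 CPM, with no overlap (log2 fold change -0.54, SE 0.0699, edgeR adjusted p = 2.92e-08). In promyelocytes it stood at 21.7, 22.9 and 21.6 CPM with vehicle and 23.4, 21.6 and 22.2 CPM with TNF-α, in 1 shared range (log2 fold change 0.02, SE 0.0767, edgeR adjusted p = 0.893). The responses of *SLC38A9* differed by -0.53 (SE 0.105, edgeR adjusted p = 0.000429). The other 5 tested members of the family passed in neither cell type. Their log2 fold changes ran from -0.14 (*SLC38A10*) to 0.12 (*SLC38A2*, the SNAT2 importer that amino acid shortage induces) in promyelocytes and from -0.10 (*SLC38A2*) to 0.18 (*SLC38A5*) in granulocytes, with *SLC38A6* and *SLC38A7* between. *SLC38A3*, *SLC38A4*, *SLC38A8* and *SLC38A11* were not tested.

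Of the proton-coupled carriers, *SLC36A1* (PAT1, chr5:151437046-151492381, plus strand) releases small amino acids from the lysosome and interacts with mTORC1 signaling. It fell in promyelocytes from 64.8, 63.1 and 67.4 CPM to 51.2, 53.5 and 55.8 CPM, with the groups apart (log2 fold change -0.28, SE 0.0610, edgeR adjusted p = 0.00273). In granulocytes it was at 206, 208 and 220.1 CPM with vehicle and 205, 197 and 188 CPM with TNF-α, ranges apart by a narrow gap, and did not pass (log2 fold change -0.10, SE 0.0491, edgeR adjusted p = 0.076). The responses of *SLC36A1* differed by 0.22 (SE 0.0770, edgeR adjusted p = 0.0416), a call that held in 4 of the 12 fits that left out 1 library (edgeR adjusted p up to 0.124) and ended with no filter (0.13, edgeR adjusted p = 0.397), with DESeq2 size factors (0.17, edgeR adjusted p = 0.132) and under DESeq2 (0.16, adjusted p = 0.126). With GC content and length trends removed the difference was 0.08 (edgeR adjusted p = 0.401) and *SLC36A1* also fell in granulocytes (-0.15, edgeR adjusted p = 0.00129), as it did without TNF-α library 1 (-0.13, edgeR adjusted p = 0.0346).

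*SLC36A4* (PAT4, chr11:93144171-93197964, minus strand), a high-affinity carrier of proline and tryptophan, rose in granulocytes from 30.1, 31.4 and 27.2 CPM to 35.3, 39.4 and 42.7 CPM. The groups were apart (log2 fold change 0.41, SE 0.0695, edgeR adjusted p = 6.48e-06). In promyelocytes all TNF-α libraries (75.8, 68.1 and 69.2 CPM) exceeded all vehicle libraries (64.2, 66.2 and 66.5 CPM), though the change did not pass (log2 fold change 0.11, SE 0.0614, edgeR adjusted p = 0.247). The responses of *SLC36A4* differed by 0.33 (SE 0.0959, edgeR adjusted p = 0.0126), which fell short with no filter (edgeR adjusted p = 0.0706) and without granulocyte vehicle library 3 or TNF-α library 3 (edgeR adjusted p of 0.0556 and 0.0546). *SLC36A2* and *SLC36A3* were not tested. *SLC7A6OS*, matched by symbol only, was not called in either cell type (log2 fold changes 0.04 and 0.14).

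In total 16 of the 41 genes were tested in neither cell type. Of these, 7 had 0 counts in all 12 libraries (*SLC1A1*, *SLC1A6*, *SLC38A3*, *SLC38A4*, *SLC38A11*, *SLC7A4*, *SLC7A10*). The other 9 had at most 8 counts in any library (*SLC1A7*, *SLC3A1*, *SLC7A3*, *SLC7A9*, *SLC7A13*, *SLC7A14*, *SLC36A2*, *SLC36A3*, *SLC38A8*).

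Levels per kilobase of exon allow a rough order between genes. The divisor is the length of all annotated exons of a gene, not of the transcripts expressed, so close ranks are uncertain. For *SLC43A3* it includes the 29.9% of exon bases shared with another gene, where read pairs were left out. In vehicle-treated promyelocytes *SLC1A5* was first at 110.0 CPM per kilobase, above *SLC7A5* (60.4) and *SLC43A3* (59.0), whose libraries overlapped each other. *SLC38A1* (41.0), *SLC38A5* (31.4), *SLC38A2* (26.2) and *SLC3A2* (25.3) followed, and the last pair overlapped. In vehicle-treated granulocytes *SLC38A1* (37.1) and *SLC1A5* (37.0) came first with overlapping libraries, then *SLC7A11* (32.4) and *SLC36A1* (30.3), which also overlapped. With TNF-α the granulocyte order began with *SLC38A1* (52.6), followed by *SLC7A11* (45.4) and *SLC1A5* (44.9), whose libraries overlapped, and *SLC43A3* (39.6). *SLC3A2* stood at 16.3 with vehicle and 22.4 with TNF-α, below *SLC7A11* in both. Levels of *SLC38A5*, *SLC7A2* and *SLC1A4* per kilobase were 31.4, 11.5 and 13.9 in vehicle-treated promyelocytes and 1.82, 0.925 and 2.55 in vehicle-treated granulocytes. *SLC7A11* (2.41 and 32.4) and *SLC36A1* (9.33 and 30.3) had the opposite order. These contrasts join separate experiments and were not tested.

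**Figure D3:**
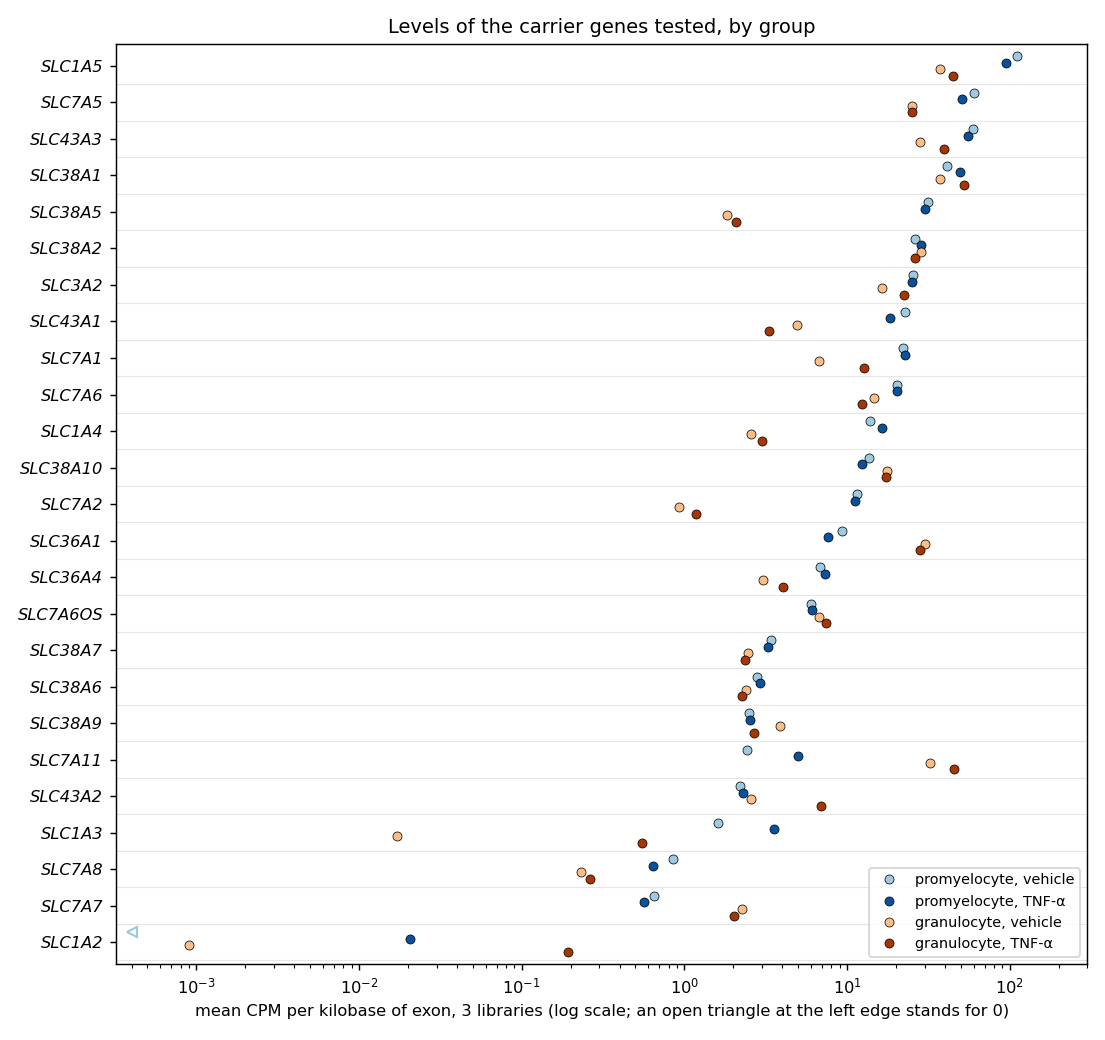
Mean level of the 25 tested genes in CPM per kilobase of exon (log axis, 3 libraries a group), sorted by the level in vehicle-treated promyelocytes. The open triangle stands for 0, *SLC1A2* in vehicle-treated promyelocytes, and *SLC7A11* and *SLC36A1* lie to the right in granulocytes while *SLC38A5*, *SLC7A2*, *SLC1A4* and *SLC1A3* lie to the left.

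The 4 companion lists set the carriers beside other parts of amino acid handling, with no test of a list as a whole. Their counts stand beside 8.15% increased and 6.65% decreased of all tested genes in promyelocytes, and 24.4% and 24.8% in granulocytes. The other amino acid carriers (25 genes of the SLC6, SLC15, SLC16, SLC25 and related families) held 13 tested genes in each cell type. In promyelocytes 0 of them increased and 3 decreased, with a median log2 fold change of -0.07 beside -0.0094 for all genes. DESeq2 also called 0 increased, and 2 increased at an unadjusted edgeR p under 0.05. Without vehicle library 1 a single gene decreased, and without TNF-α library 3 or with the GC content and length trends removed 1 increased. In granulocytes 7 increased and 1 decreased (2 without TNF-α library 3 or with the trends removed), with a median of 0.36 beside -0.0046. *SLC6A6*, the taurine carrier, rose from 166 ± 9.52 to 374 ± 19.8 CPM in granulocytes (SD, n = 3; log2 fold change 1.17, SE 0.0523, edgeR adjusted p = 1.02e-20). *SLC15A3*, a lysosomal carrier of peptides and histidine, rose there by 2.08 on the log2 scale from 1.73 ± 0.333 to 7.29 ± 0.771 CPM (edgeR adjusted p = 2.70e-13). The mitochondrial carrier of basic amino acids *SLC25A29* fell in promyelocytes (log2 fold change -0.66, edgeR adjusted p = 1.48e-05) and rose in granulocytes (0.51, edgeR adjusted p = 4.84e-05). *CTNS*, which exports cystine from the lysosome, fell in granulocytes (-0.78, edgeR adjusted p = 1.95e-08).

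Genes of the amino acid response, *ATF4* and its known targets, did not move as a block. *ATF4* itself rose in granulocytes from 232 ± 13.5 to 361 ± 29.6 CPM (SD, n = 3; log2 fold change 0.64, edgeR adjusted p = 1.90e-12). It was not called in promyelocytes (0.09, edgeR adjusted p = 0.351). Of 34 listed, 33 were tested in promyelocytes, where 2 increased and 5 decreased (median -0.01), and 31 in granulocytes, where 12 increased and 9 decreased (median 0.01). The 5 that decreased became 3 without promyelocyte vehicle library 2 or TNF-α library 1, and 2 without vehicle library 3 or TNF-α library 2, and the 2 that increased became 4 with the trends removed. *MTHFD2*, a mitochondrial enzyme of one-carbon metabolism, rose in both (0.42 and 1.32, edgeR adjusted p = 1.88e-05 and 2.40e-23), reaching 319 ± 10.7 CPM in granulocytes from 128 ± 1.18 (SD, n = 3). *ATF3*, a stress-induced transcription factor, rose in granulocytes from 0.866 ± 0.0865 to 3.80 ± 0.635 CPM (2.14, edgeR adjusted p = 5.21e-10). *CBS*, which opens the route from homocysteine to cysteine, rose there too, from 1.57 ± 0.223 to 2.78 ± 0.414 CPM (0.83, edgeR adjusted p = 0.0017). *CTH*, of the same list and route, fell there from 2.77 ± 0.559 to 1.79 ± 0.140 CPM (-0.64, edgeR adjusted p = 0.0137). The lipoprotein receptor *VLDLR* fell in both cell types (-0.31 and -1.04, edgeR adjusted p = 0.0122 and 5.17e-13).

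The genes through which lysosomal amino acids reach mTORC1 also went in both directions. Of 33 listed, 32 were tested in promyelocytes (3 increased, 3 decreased, median -0.01) and 33 in granulocytes (9 increased, 4 decreased, median 0.02). The 3 that decreased became 6 with all 12 libraries in 1 fit, and the 4 became 7 without granulocyte vehicle library 2 and 10 with the trends removed. *SESN3*, a member of the sestrin family of mTORC1 inhibitors, was the most abundant of those named and fell in both. It went from 279 ± 6.20 to 169 ± 5.43 CPM in promyelocytes and from 463 ± 11.4 to 176 ± 2.06 CPM in granulocytes (-0.72 and -1.40, edgeR adjusted p = 6.30e-09 and 3.76e-24, SD, n = 3). *SAMTOR*, the methionine-derived methyl donor sensor, rose in both (0.86 and 1.12, edgeR adjusted p = 1.35e-07 and 6.01e-19). *CASTOR1*, the cytosolic arginine sensor, stood at 0.265 ± 0.0632 CPM with vehicle and 1.60 ± 0.0863 CPM with TNF-α in granulocytes, where it passed the filter through the TNF-α libraries alone and so had to differ. *TFEB*, a transcription factor of lysosomal genes, rose there from 37.1 ± 3.16 to 58.4 ± 2.51 CPM (0.65, edgeR adjusted p = 2.44e-11).

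Enzymes that use imported amino acids made up the last list. Of 24 listed, 19 were tested in each cell type, with 2 increased and 2 decreased in promyelocytes (median -0.01) and 8 increased and 2 decreased in granulocytes (median 0.06). The 2 that decreased in promyelocytes became 1 under DESeq2 and without vehicle library 2 or 3 or TNF-α library 1 or 2. *GLUL*, of this list, fell in promyelocytes and in granulocytes (-0.48 and -0.98, edgeR adjusted p = 1.95e-06 and 2.23e-19). *SAT1*, which acetylates spermidine and spermine, rose from 32.7 ± 1.23 to 58.9 ± 3.52 CPM in promyelocytes and from 138 ± 2.97 to 646 ± 21.3 CPM in granulocytes (0.85 and 2.23, edgeR adjusted p = 8.26e-09 and 4.52e-30, SD, n = 3). *GCLC* and *GSS*, also of glutathione synthesis, were not called in granulocytes (-0.02 and -0.10, edgeR adjusted p = 0.804 and 0.24). *GCLM*, the modifier subunit of the first enzyme of glutathione synthesis, rose in granulocytes from 17.5 ± 0.624 to 62.2 ± 7.49 CPM (1.83, edgeR adjusted p = 2.11e-22). In promyelocytes the log2 fold change of *GCLM* was 0.05 (edgeR adjusted p = 0.735), and the difference between its responses was 1.82 (edgeR adjusted p = 2.72e-12). *ASS1*, which rebuilds arginine from citrulline, rose in granulocytes (0.99, edgeR adjusted p = 2.57e-08). The arginases *ARG1* and *ARG2* and the nitric oxide synthase *NOS2* were too low to test in either cell type. As group means, *ARG1* was at 0 CPM throughout, *ARG2* at no more than 0.166 CPM and *NOS2* at no more than 0.0212 CPM. *KYNU*, of the tryptophan breakdown pathway, passed the filter through the TNF-α libraries alone in both, with 4 against 74 in promyelocytes (ratio 18.9, counting interval 7.08 to 71.2) and 1 against 57 in granulocytes (ratio 67.3, counting interval 11.6 to 2704). *ASNS*, *SESN2* and *WARS1* each stand in 2 of these lists.

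**Figure D4:**
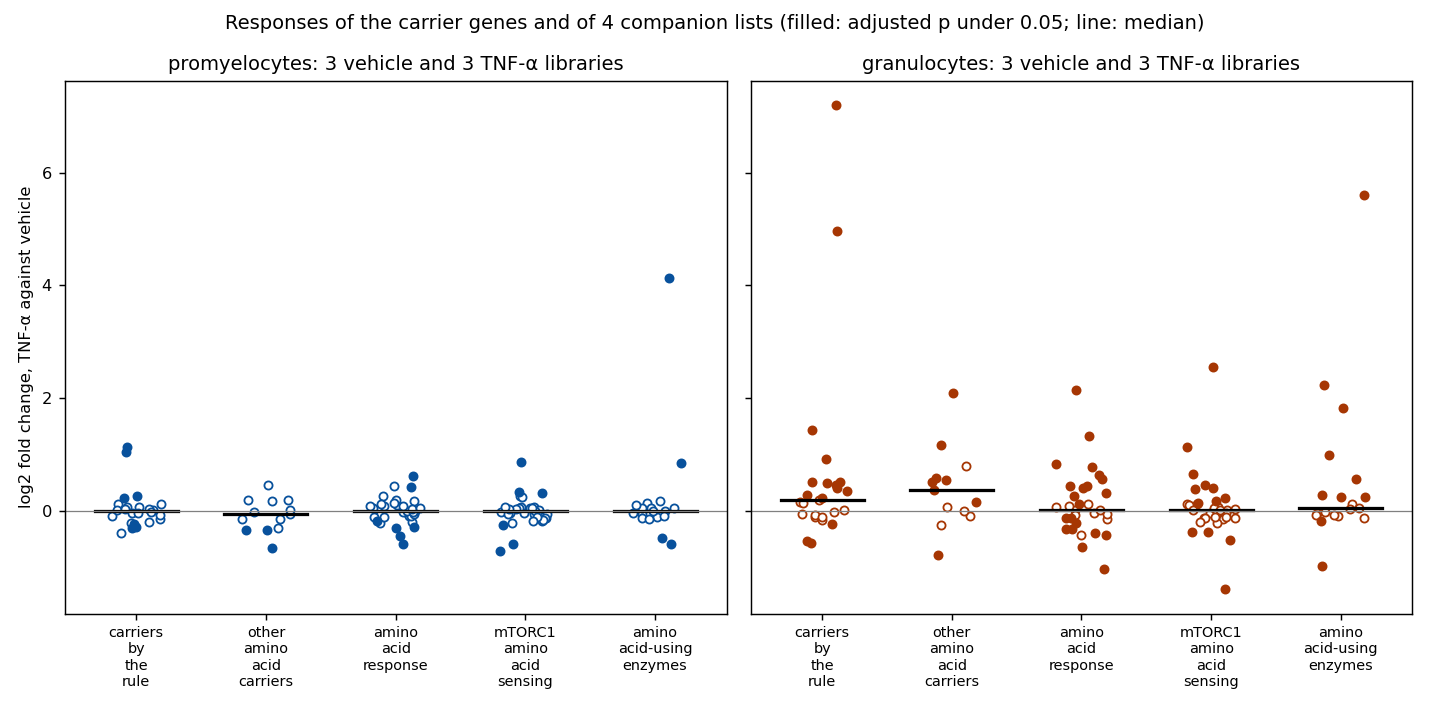
Log2 fold changes of TNF-α against vehicle for the tested genes of the carrier families and for the 4 companion lists, in promyelocytes (left) and granulocytes (right), 3 libraries a group. Filled points passed an adjusted p of 0.05 and black lines are medians, which lie near 0 in promyelocytes and above 0 in granulocytes for the 2 groups of carriers (0.18 and 0.36).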

How the data were processed

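Total RNA of the 12 HL-60/S4 libraries was depleted of ribosomal RNA, sequenced in paired ends and aligned to hg38 by the authors with STAR 2.5.3a. They counted read pairs per GENCODE 27 gene with featureCounts 1.5.2 on the reverse strand (option 2), using primary alignments and leaving out pairs on exons of more than one gene, and they deposited these raw counts. The table also gives the exon length of each gene. Symbols were matched for 57532 of the 58288 identifiers, and 756 had none. Samples were grouped by their labels. No public differentiation data and no RT-qPCR values were used.

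Separate fits were made for the cell types in edgeR 4.0.16 under R 4.3.3 (scaling by TMM, filterByExpr with a minimum count of 10 and a minimum total of 15, prior count 0.125, quasi-likelihood F test, Benjamini-Hochberg adjustment, threshold 0.05). A standard error is the size of the log2 fold change divided by the square root of F. The difference between the responses is the interaction term, fitted to all 12 libraries. Scaling all 12 libraries together moves a library's factor by at most 2.28%. CPM were divided by exon length in kilobases for levels between genes. Counting intervals are exact 95% intervals and floors are 3 counts, and both cover counting error only. A two-sided exact permutation test of 3 against 3 libraries cannot go below p = 0.1, so single-gene tests rest on the spread modelled across genes. Replicate libraries differed by more than sampling noise (mean chi-square per gene 3.59 to 14.1), so all were counted as separate.

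The carriers, lists and tests were chosen with earlier results of these data known. Values in every library are given for carriers called in both cell types or with a called difference between responses. They are also given for carriers called in 1 cell type with a log2 fold change of at least 0.5 in size. Per companion list at most 4 genes were chosen, those with the largest changes. *ATF4*, *CTH*, *GLUL*, *GCLC*, *GSS*, *ARG1*, *ARG2* and *NOS2* were named besides. Alternatives were DESeq2 size factors, no filter, DESeq2 1.42.0, all 12 libraries in 1 fit, a block for the replicate number, a threshold of 0.01, offsets for GC content and length, and each library left out. On simulated counts 173 of 194 changed genes were recovered with 11 false calls in promyelocytes (15958 genes), 181 of 192 with 9 in granulocytes (16612 genes), and 177 of 200 with 10 for the interaction (13805 genes). How this recovery depends on the size of a change was not tested. SAMTOR was matched through an older symbol. Tables were made with pandas 2.3.3 and scipy 1.17.1 and plots with matplotlib 3.10.9.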

Additional observations from a re-analysis of the deposited data

Results flagged for a closer look

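For 14 carriers the response to TNF-α differed between the cell types by the interaction test in edgeR, and their differences (granulocyte minus promyelocyte, log2) are listed here. The granulocyte response was the more positive for *SLC1A3* (3.88), *SLC43A2* (1.40), *SLC7A1* (0.93), *SLC43A3* (0.64), *SLC1A5* (0.52), *SLC3A2* (0.51), *SLC7A2* (0.42), *SLC36A4* (0.33), *SLC7A5* (0.29), *SLC38A1* (0.28) and *SLC36A1* (0.22). It was the more negative for *SLC38A9* (-0.53), *SLC7A11* (-0.53) and *SLC7A6* (-0.21). Cell type and experiment cannot be told apart in these differences, and their split by direction was not computed over all genes.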

How the results depend on the processing

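The number of carriers called decreased in promyelocytes was 3, and 5 with all 12 libraries in 1 fit. Leaving out 1 library gave 2 to 5. In granulocytes 3 were called decreased, and 6 once the GC content and length trends were removed. Leaving out 1 library gave 3 to 4. The other counts of these genes kept within 1.5 times their value under each alternative run: 3 to 5 increased in promyelocytes (4), 10 to 13 increased in granulocytes (12) and 10 to 14 with a called difference (14), and 3 to 4, 11 to 12 and 11 to 16 with 1 library left out.

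No call turned its direction while called. Fold changes that were not called and lay near 0 changed sign. In promyelocytes these were *SLC38A9* (-0.0032) and *SLC7A6* (-0.018) with all 12 libraries in 1 fit, *SLC38A9* (-0.023), *SLC3A2* (0.029) and *SLC36A4* (-0.024) with the GC content and length trends removed, and, with 1 library left out, *SLC38A9* (-0.011 to 0.049), *SLC3A2* (-0.049 to 0.014), *SLC7A1* (-0.0061 to 0.092), *SLC7A2* (-0.091 to 0.012) and *SLC7A6* (-0.015 to 0.031). In granulocytes *SLC7A5* went to -0.00032 with no filter, -0.15 with the GC content and length trends removed, where it was called (adjusted p = 0.00596), and -0.060 to 0.081 with 1 library left out. The difference between responses of *SLC1A4* went to -0.020 with DESeq2 size factors, -0.054 with no filter, -0.028 in DESeq2, -0.091 with the trends removed and -0.019 to 0.096 with 1 library left out. The cause of these changes was not tested.

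With the replicate number as a block, no call of a carrier within a cell type changed, and 11 in place of 14 differences were called, those of *SLC7A5*, *SLC36A1* and *SLC7A6* being lost (adjusted p of 0.108, 0.114 and 0.11). Deviations of same-numbered libraries from their group means correlated at -0.29 to -0.15 in promyelocytes and -0.17 to -0.0085 in granulocytes, so the numbers were not taken to pair the libraries. Depth limits *SLC1A2*, the vehicle level of *SLC1A3* in granulocytes and the 16 carriers not tested.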
